A study of Mus musculus with 8 samples.

Results

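A set of 10 genes that mark the walls of blood vessels was followed through RNA-seq of the embryonic hippocampus. They were chosen by name: Kdr, Flt1, Pecam1, Cdh5, Tek and Tie1 for endothelial cells, Pdgfb and Pdgfrb for the signal that draws pericytes to endothelium, Rgs5 for pericytes, and Mfsd2a for the endothelial barrier. All 10 were found among the 16397 genes of the count table, and all 10 were among the 13707 protein-coding genes tested. RNA came from E15.5 hippocampi of 4 IUGR and 4 sham offspring of C57Bl/6J dams, with embryos of both sexes in the groups. From E12.5, a micro-osmotic pump gave the dams of the IUGR group U-46619, a thromboxane A2 analog that raises maternal blood pressure and restricts fetal growth, whereas the sham dams received a pump with the ethanol vehicle. The drug was given to the mother, and whether it reached the embryo is not stated in the sources used here. IUGR samples are T1-1, T1-3, T1-4 and T1-5, and sham samples are S1-4, S1-6, S3-1 and S3-4. The sources do not say what the prefixes T1, S1 and S3 stand for, so prefix and treatment cannot be told apart for the IUGR group, nor whether samples of a group came from separate litters. P values therefore measure only the spread between these samples.

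Brain vessels grow into the embryonic forebrain from a plexus on its surface. Vascular endothelial growth factor draws endothelial sprouts by way of the receptor VEGFR2, encoded by Kdr, whereas VEGFR1, encoded by Flt1, binds the same ligand tightly, signals weakly and acts largely as a decoy. Angiopoietins act on the endothelial receptor Tie2, encoded by Tek, with Tie1 as its partner. Sprouting endothelium releases PDGF-B, and pericytes, which carry its receptor PDGFRβ, follow the new vessel and settle on it. Contact between the layers goes together with maturation of the blood-brain barrier, in which the lipid transporter Mfsd2a holds down vesicular transport across the endothelium.

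Promoter windows are shown for the receptor pair Kdr and Flt1, whose difference within samples separated the groups, for the angiopoietin receptor gene Tek and for the barrier gene Mfsd2a. Each line gives the 250 bases before the RefSeq start site in GRCm38.p6, 5′ to 3′ on the strand of the gene. Capitals mark AGGAAG, the core letters of ETS factors, GATAA, those of GATA factors, and ACGTG, those of hypoxia-inducible factors, searched on both strands. These motifs do not overlap each other in the windows shown.
Kdr: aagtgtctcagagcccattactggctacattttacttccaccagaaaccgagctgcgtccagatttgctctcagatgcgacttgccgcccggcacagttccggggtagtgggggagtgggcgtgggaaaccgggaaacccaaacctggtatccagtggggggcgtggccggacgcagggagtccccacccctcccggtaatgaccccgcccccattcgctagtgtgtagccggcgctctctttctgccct
Flt1: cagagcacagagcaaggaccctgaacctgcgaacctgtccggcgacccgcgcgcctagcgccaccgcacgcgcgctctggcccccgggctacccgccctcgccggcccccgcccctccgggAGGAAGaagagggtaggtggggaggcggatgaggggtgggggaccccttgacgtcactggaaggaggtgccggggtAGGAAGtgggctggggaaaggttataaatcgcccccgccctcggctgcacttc
Tek: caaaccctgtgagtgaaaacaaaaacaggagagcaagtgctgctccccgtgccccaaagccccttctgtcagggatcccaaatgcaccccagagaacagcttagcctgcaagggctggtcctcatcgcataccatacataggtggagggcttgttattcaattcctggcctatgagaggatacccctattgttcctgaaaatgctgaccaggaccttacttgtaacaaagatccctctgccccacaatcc
Mfsd2a: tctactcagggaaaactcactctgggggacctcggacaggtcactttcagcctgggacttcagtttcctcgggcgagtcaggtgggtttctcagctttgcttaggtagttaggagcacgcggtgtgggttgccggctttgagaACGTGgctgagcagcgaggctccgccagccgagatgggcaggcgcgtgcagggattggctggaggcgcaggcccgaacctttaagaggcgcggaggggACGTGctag
The Kdr window lies at chr5:75978456-75978705 on the minus strand, and its last 3 bases fall inside the gene as GENCODE draws it. On the same chromosome and strand the Flt1 window lies at chr5:147726012-147726261. Tek has its window at chr4:94739039-94739288 on the plus strand, and Mfsd2a at chr4:122961189-122961438 on the minus strand. RefSeq windows were found for 6 of the 10 genes, the others being Tie1 and Rgs5, and none is shown for Pecam1, Cdh5, Pdgfb and Pdgfrb. The Flt1 window held AGGAAG at 2 places, which begin 129 and 53 bases before the start, and the Kdr and Tek windows held none of the motifs. In the Mfsd2a window ACGTG began 107 and 9 bases before the start. AGGAAG was found in 2 of the 6 windows (Flt1 and Tie1), ACGTG in 1 (Mfsd2a) and GATAA in 1 (Rgs5), and 212 bases of the Tie1 window lie inside the gene as GENCODE draws it. Among all 32851 RefSeq windows of 250 bases, AGGAAG was found in 29.5%, GATAA in 22.6% and ACGTG in 16.6%. G and C made up 70.4% of the Flt1 window and 61.6% of the Kdr window, beside a median of 52.4% over all windows. A match describes the letters only, and a window without one says nothing of a factor.

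Counted reads numbered 12919546 to 16672463 per IUGR sample and 11212632 to 15405748 per sham sample. Values are given as CPM (reads per 1000000 reads counted in the 13707 tested genes, with library sizes adjusted by edgeR's TMM factors). Folds are log2 fold changes of IUGR over sham from edgeR's quasi-likelihood test. A gene was called at a Benjamini-Hochberg adjusted p of at most 0.05, over all tested genes, if its log2 fold change was also 1 or more, up or down. By this rule 200 of 13707 genes were called. Endothelial and pericyte markers were present in every sample. The lowest counts of any sample were 316 for Pecam1, 238 for Cldn5, 172 for Cdh5 and 99 for Esam among endothelial markers. Among those of pericytes they were 1602 for Rgs5, 274 for Pdgfrb, 252 for Abcc9, 99 for Cspg4 and 68 for Kcnj8. Expression of the Y-linked gene Ddx3y, at 115.1 to 224.4 CPM in males and 0.17 to 0.76 CPM in females, placed 1 male (T1-1) and 3 females in the IUGR group and 3 males and 1 female (S1-6) in the sham group. Sex therefore moved with treatment. Markers of several other cell types and tissues differed as well. The 10 choroid plexus markers summed to between 42.3 and 1150 CPM in the IUGR samples, far below the 5328 to 11870 CPM of the sham samples. All 8 that entered the test were lower, and 3 of them were called. The 10 meningeal markers summed to 2832 CPM in T1-3 and 788 CPM in T1-5, to 415 CPM in T1-1 and to 78.6 CPM in T1-4, beside 303 to 568 CPM in the sham group, and 9 of 10 were higher in IUGR hippocampi (median log2 fold change 1.198, none at an unadjusted p under 0.05). Neuronal markers, 8 of 8 of which were higher in IUGR hippocampi (median log2 fold change 0.46, 5 at an unadjusted p under 0.05), summed to 4967 to 5372 CPM with IUGR and 3583 to 4545 CPM without, and these sums did not overlap. Microglial markers were higher in 10 of 10 cases (median 0.26, none at an unadjusted p under 0.05). Markers of hippocampal tissue were lower in 8 of 8 (median −0.48, 2 at an unadjusted p under 0.05). Of the 8 radial glial markers, 4 were higher and 4 lower (median −0.03, none at an unadjusted p under 0.05). None of the markers in these lists was at 0 in any sample.

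**Figure D1:**
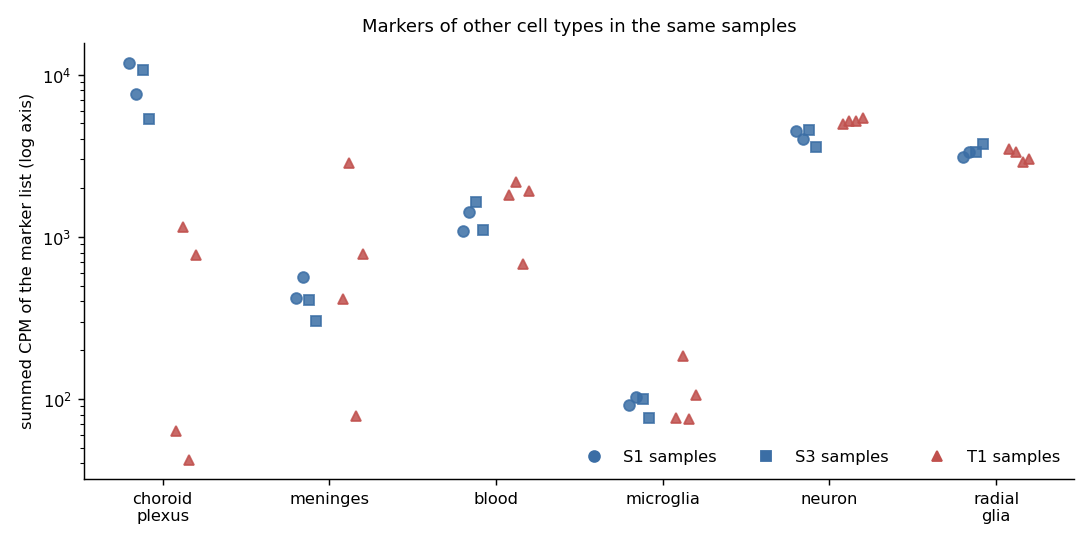
Summed CPM of marker lists (log axis) for each sample, with sham samples in blue (circles S1, squares S3) and IUGR samples in red (triangles). Choroid plexus sums reach at most 1150 CPM in IUGR and at least 5328 CPM in sham samples, and the highest meningeal sum, 2832 CPM, belongs to T1-3.

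None of the 10 vascular genes was called, where the rule called 1.46% of all tested genes, 0.102% as higher and 1.36% as lower. Of the 10, 7 were higher in IUGR hippocampi and 3 lower (Kdr, Pdgfb and Mfsd2a), with a median log2 fold change of 0.36 beside −0.02 over all tested genes. At an unadjusted p under 0.05, which 11.1% of tested genes reached, Flt1, Tie1 and Rgs5 stood higher and Mfsd2a lower. The groups did not overlap for Tie1 alone, a separation seen in 7.14% of tested genes. DESeq2's Wald test and limma-voom also called none of the 10, with 5 and 4 of them at an unadjusted p under 0.05. With the choroid plexus score as a covariate, whose values do not overlap between the groups, the median of the 10 was 0.72. In that fit Cdh5 was called at 2.05, Tek was at 1.34, Flt1 at 0.92, Rgs5 at 0.73 and Mfsd2a at −1.09, and Kdr turned to 0.33. In whole tissue, fewer cells of a type and less RNA per cell cannot be told apart, and so these values do not separate vessel density from expression per vessel cell.

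**Figure D2:**
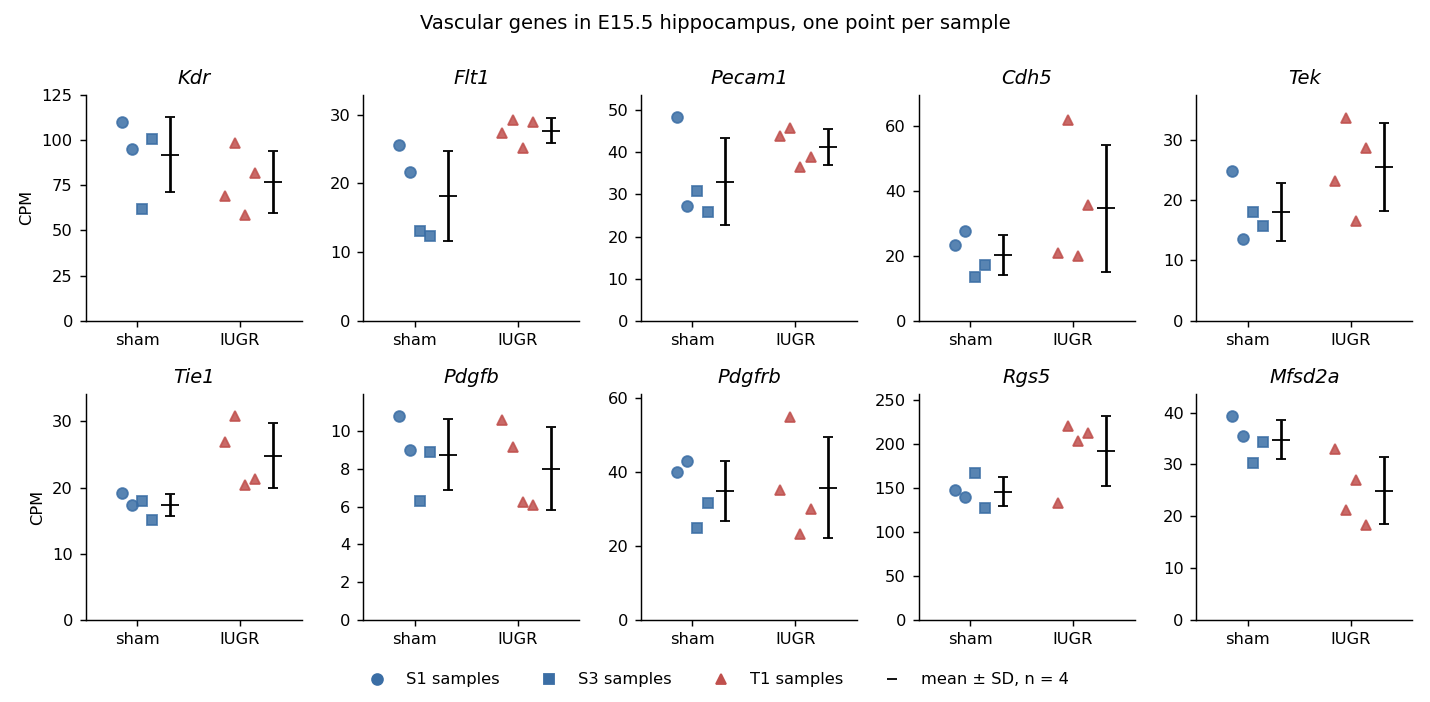
CPM of the 10 vascular genes in each hippocampus, with linear axes from 0, blue circles for S1, blue squares for S3, red triangles for IUGR, and bars for mean ± SD (n = 4). The 4 IUGR values of Tie1 (20.4 to 30.8 CPM) lie above the 4 sham values (15.0 to 19.1 CPM), and the groups overlap for each of the other 9 genes.

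Kdr encodes the main signalling receptor of the vascular growth factor. It measured 69.2, 98.7, 58.4 and 81.8 CPM (T1-1, T1-3, T1-4 and T1-5) in IUGR hippocampi, and 110.3 (S1-4), 95.3 (S1-6), 62.0 (S3-1) and 100.6 CPM (S3-4) in sham hippocampi. The groups overlapped, since S3-1 was lower than all IUGR samples but T1-4. Means were 77.0 ± 17.3 and 92.0 ± 20.98 CPM (SD, n = 4 each), for a log2 fold change of −0.26 (standard error, SE, 0.21, 95% interval −0.72 to 0.21, edgeR adjusted p = 0.911). With the choroid plexus score as a covariate the sign turned, to 0.33 (edgeR adjusted p = 0.789). Kdr lies on chromosome 5, 75932827 to 75978458 (minus strand of GRCm38), and its exons cover 9030 bases.

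Flt1, the decoy receptor, had a fold change of the opposite sign to that of Kdr, without covariates. Its values were 27.4, 29.2, 25.2 and 29.0 CPM in T1-1, T1-3, T1-4 and T1-5, beside 25.6, 21.6, 13.1 and 12.3 CPM in S1-4, S1-6, S3-1 and S3-4. IUGR samples were close together, with a coefficient of variation of 6.68%, and all but T1-4 exceeded every sham sample, which spread more widely (35.8%). The means of 27.7 ± 1.85 and 18.2 ± 6.51 CPM (SD, n = 4 each) gave a log2 fold change of 0.61 (SE 0.24, 95% interval 0.08 to 1.14, unadjusted p = 0.0270, adjusted p = 0.332 from edgeR). An exact two-sided permutation test gave p = 0.0571, where 0.0286 is the smallest that 4 against 4 samples allow. Within the sham group, S1 samples exceeded S3 samples by 0.88 on the log2 scale. Against the S1 samples alone the log2 fold change was 0.23 (edgeR adjusted p = 0.976), and against the S3 samples alone it was 1.15 (adjusted p = 0.0828). In the males, T1-1 exceeded all 3 sham samples, and the 3 IUGR females exceeded the sham female. Flt1 lies on chromosome 5, 147561604 to 147726011 (minus strand), with 13504 exonic bases, and counts per gene do not separate its membrane-bound from its soluble transcript.

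Because both receptors were read in the same libraries, they were also compared within samples. Log2 CPM of Kdr exceeded that of Flt1 by 1.34, 1.75, 1.21 and 1.49 (T1-1, T1-3, T1-4 and T1-5) in IUGR hippocampi. In sham hippocampi the difference was 2.10 (S1-4), 2.13 (S1-6), 2.23 (S3-1) and 3.01 (S3-4). All IUGR samples were thus below all sham samples, with means of 1.45 ± 0.23 and 2.37 ± 0.43 (SD, n = 4 each). This pair was singled out after its values were seen, and no test was made of it. Of the 45 pairs of vascular genes, 6 (13.3%) had differences that did not overlap between the groups, whereas 9.41% of all pairs of tested genes did. Flt1 entered 3 of these 6 pairs, with Kdr, Pdgfb and Mfsd2a. Mfsd2a entered 3, with Flt1, Pecam1 and Tie1, and the sixth was Kdr with Cdh5.

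**Figure D3:**
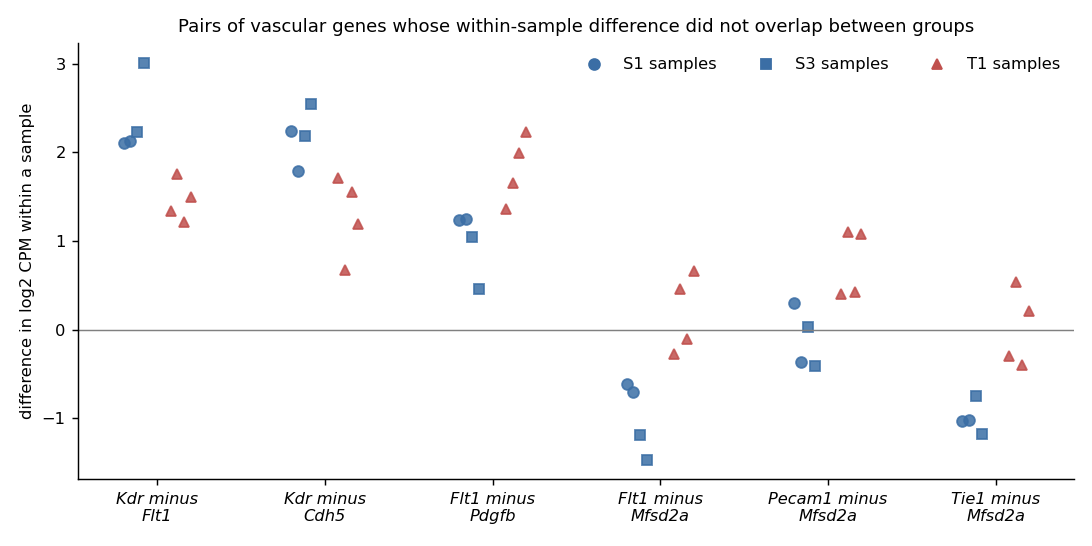
Difference in log2 CPM between paired vascular genes within each sample, for the 6 of 45 pairs whose groups do not overlap (blue circles S1, blue squares S3, red triangles IUGR). For Kdr minus Flt1 the IUGR samples lie between 1.21 and 1.75 and the sham samples between 2.10 and 3.01.

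Tek and Tie1 encode the receptors of the angiopoietin pathway. Tie1 measured 26.8, 30.8, 20.4 and 21.2 CPM (T1-1, T1-3, T1-4 and T1-5) in IUGR, and 19.1 (S1-4), 17.3 (S1-6), 18.0 (S3-1) and 15.0 CPM (S3-4) in sham hippocampi. Its lowest IUGR sample was above its highest sham sample. The means were 24.8 ± 4.91 and 17.4 ± 1.72 CPM (SD, n = 4 each), for a log2 fold change of 0.52 (SE 0.18, 95% interval 0.13 to 0.91, unadjusted p = 0.0146, adjusted p = 0.238 from edgeR). The exact two-sided permutation test gave p = 0.0286, the smallest it can give with these group sizes. Tie1 kept an unadjusted p under 0.05 in each of the 8 fits that left out 1 sample, with log2 fold changes of 0.43 to 0.60 and edgeR adjusted p of 0.196 to 0.565. Because the groups did not overlap, the IUGR samples of each sex were necessarily higher too, which adds no separate evidence. With Xist, a transcript of the inactive X chromosome, as a covariate for sex the log2 fold change of Tie1 was 0.56 (edgeR adjusted p = 0.538). Against the S1 samples alone it was 0.45 and lost the unadjusted p under 0.05 (unadjusted p = 0.0850, adjusted p = 0.781 from edgeR), and against the S3 samples alone it was 0.62. Tie1 lies on chromosome 4, 118471191 to 118490061 (minus strand), with 4917 exonic bases.

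Tek, on chromosome 4 at 94739289 to 94874976 (plus strand), had 23.2, 33.6, 16.6 and 28.7 CPM in T1-1, T1-3, T1-4 and T1-5, and 24.8, 13.6, 18.0 and 15.7 CPM in S1-4, S1-6, S3-1 and S3-4. T1-3 and T1-5 exceeded all sham samples, whereas T1-4 lay among them. The log2 fold change was 0.51 (SE 0.25, 95% interval −0.05 to 1.06, adjusted p = 0.530 from edgeR).

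Pecam1 and Cdh5 encode proteins of the junctions between endothelial cells, the adhesion molecule PECAM-1 and VE-cadherin. Pecam1 measured 43.8, 45.8, 36.4 and 38.9 CPM in T1-1, T1-3, T1-4 and T1-5, beside 48.4, 27.4, 30.8 and 25.8 CPM in S1-4, S1-6, S3-1 and S3-4. S1-4 was the highest of the 8, and the other sham samples were all below the IUGR samples. Its log2 fold change was 0.32 (SE 0.20, 95% interval −0.13 to 0.77, adjusted p = 0.748 from edgeR), and 0.58 when S1-4 was left out. Cdh5 measured 20.98, 62.0, 19.9 and 35.7 CPM (T1-1, T1-3, T1-4 and T1-5) in IUGR, and 23.2 (S1-4), 27.5 (S1-6), 13.5 (S3-1) and 17.1 CPM (S3-4) in sham hippocampi. T1-3 and T1-5 exceeded the sham range, and T1-1 and T1-4 lay within it. The log2 fold change of Cdh5 was the largest of the 10, at 0.77 (SE 0.37, 95% interval −0.04 to 1.59, adjusted p = 0.491 from edgeR), and it was 0.36 without T1-3 (adjusted p = 0.969). T1-3 and T1-5 were also the IUGR samples with the most meningeal RNA, and in a fit with the meningeal score as a covariate the log2 fold change of Cdh5 was 0.56 (edgeR adjusted p = 0.293). With the choroid plexus score as a covariate it was 2.05 (edgeR adjusted p = 0.0436), which met the rule for a call. Pecam1 lies on chromosome 11, 106654217 to 106750628 (minus strand), and Cdh5 on chromosome 8, 104101625 to 104144511 (plus strand).

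For the ligand and receptor of pericyte recruitment, the groups overlapped in part. Pdgfb had 10.6, 9.16, 6.24 and 6.08 CPM in T1-1, T1-3, T1-4 and T1-5, and 10.8, 9.003, 6.28 and 8.91 CPM in S1-4, S1-6, S3-1 and S3-4, a log2 fold change of −0.12 (95% interval −0.69 to 0.44, adjusted p = 0.9995 from edgeR). Pdgfrb had 35.2, 54.9, 23.1 and 30.0 CPM in the IUGR samples in the same order, and 40.1, 42.9, 24.8 and 31.7 CPM in the sham samples, a log2 fold change of 0.04 (95% interval −0.55 to 0.63, adjusted p = 0.9995 from edgeR). Over the 21 alternative fits the log2 fold change of Pdgfrb ranged from −0.21 to 0.72. T1-4 and T1-5 were just below the lowest sham sample for Pdgfb, and for Pdgfrb T1-3 was above and T1-4 below every sham sample. For either gene the interval leaves room for changes of these sizes, and the missed threshold does not show that the levels were alike. T1-3, the sample with the highest meningeal sum, had the most Pdgfrb. T1-5, with the next highest sum, had 30.0 CPM of Pdgfrb, below the sham mean of 34.9 CPM. Pdgfb lies on chromosome 15, 79995874 to 80014977 (minus strand), and Pdgfrb on chromosome 18.

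Rgs5, a regulator of G protein signalling that marks brain pericytes, measured 133.6 CPM in T1-1 and 220.4, 203.6 and 213.2 CPM in T1-3, T1-4 and T1-5. Sham hippocampi had 148.1 (S1-4), 140.3 (S1-6), 167.0 (S3-1) and 127.7 CPM (S3-4). Thus 3 IUGR samples exceeded every sham sample, while T1-1, the IUGR male, lay within the sham range. Means of 192.7 ± 40.0 and 145.8 ± 16.4 CPM (SD, n = 4 each) gave a log2 fold change of 0.40 (SE 0.17, 95% interval 0.03 to 0.77, unadjusted p = 0.0361, adjusted p = 0.382 from edgeR). The exact two-sided permutation test gave p = 0.114. In the fits that left out 1 sample the log2 fold change ranged from 0.34 to 0.58 (edgeR adjusted p 0.0732 to 0.782). The largest value, 0.58 (edgeR adjusted p = 0.0732), was that without T1-1. An unadjusted p under 0.05 from edgeR was kept in only 3 of these fits. With Xist as a covariate the log2 fold change was 0.25 (edgeR adjusted p = 0.9995). The sham prefixes differed little for this gene, with 0.42 against either S1 or S3 samples alone. Rgs5 lies on chromosome 1, 169655501 to 169695813 (plus strand).

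Mfsd2a, the barrier gene, had the opposite pattern. It measured 33.1, 21.3, 27.1 and 18.3 CPM (T1-1, T1-3, T1-4 and T1-5) in IUGR, and 39.3 (S1-4), 35.4 (S1-6), 30.2 (S3-1) and 34.4 CPM (S3-4) in sham hippocampi. The 3 IUGR females were below every sham sample, and the IUGR male T1-1 was within the sham range, above S3-1. With means of 24.9 ± 6.52 and 34.8 ± 3.74 CPM (SD, n = 4 each), the log2 fold change was −0.48 (SE 0.19, 95% interval −0.91 to −0.05, unadjusted p = 0.0310, adjusted p = 0.351 from edgeR), and the exact two-sided permutation test gave p = 0.0571. With Xist as a covariate the log2 fold change was −0.37 (edgeR adjusted p = 0.979), and with the choroid plexus score it was −1.09 (edgeR adjusted p = 0.143). It was −0.81 (edgeR adjusted p = 0.0765) without T1-1 and T1-4, the IUGR samples with the most Mfsd2a. In the 8 fits that left out 1 sample it ranged from −0.61 to −0.36 (edgeR adjusted p 0.204 to 0.743). An unadjusted p under 0.05 was kept in 3 of these 8 fits. Within males, T1-1 differed from the 3 sham samples by −0.06 in log2 CPM for Mfsd2a and by −0.14 for Rgs5. Within females, the 3 IUGR samples differed from S1-6 by −0.69 for Mfsd2a and by 0.60 for Rgs5. With 1 sample in an arm of each sex, a difference between the sexes was not tested. Mfsd2a lies on chromosome 4, 122946850 to 122961188 (minus strand), and no other counted gene overlaps it or any other of the 10 genes.

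**Figure D4:**
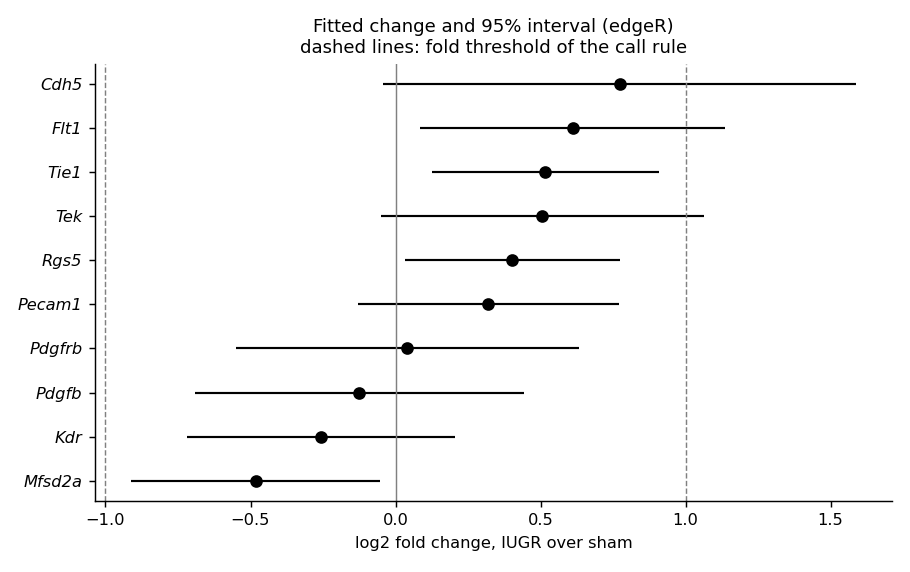
Log2 fold change of IUGR over sham for each vascular gene (points) with its 95% interval (lines) from edgeR's quasi-likelihood fit, on 4 against 4 samples. Intervals of Flt1, Tie1, Rgs5 and Mfsd2a leave out 0, before adjustment for the number of genes tested, and no point lies beyond the dashed lines at a log2 fold change of 1 in either direction.

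The samples also differed within their groups. On the log2 CPM scale, the median of the 10 genes lay 0.64 above the sham mean in T1-3, where 9 of the 10 were above it, 0.28 above in T1-5 and 0.20 above in T1-1. It lay at −0.03 in T1-4, where 5 were above. In the sham group the median was 0.27 in S1-4, where all 10 genes were above the mean, 0.05 in S1-6, −0.17 in S3-4 and −0.30 in S3-1. S1 samples exceeded S3 samples for 9 of the 10 genes, by up to 0.88 (Flt1), 0.73 (Cdh5) and 0.56 (Pdgfrb), with Rgs5 as the exception at −0.02. After the group means were removed, the correlation over the 8 samples had a median of 0.40 across the 45 pairs of genes. It was highest between Cdh5 and Pdgfrb (0.86), between Kdr and Cdh5 (0.83) and between Kdr and Pdgfrb (0.83), and lowest between Rgs5 and Mfsd2a (−0.77). These correlations are descriptions over libraries that share depth and tissue makeup, and no test was made of them.

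**Figure D5:**
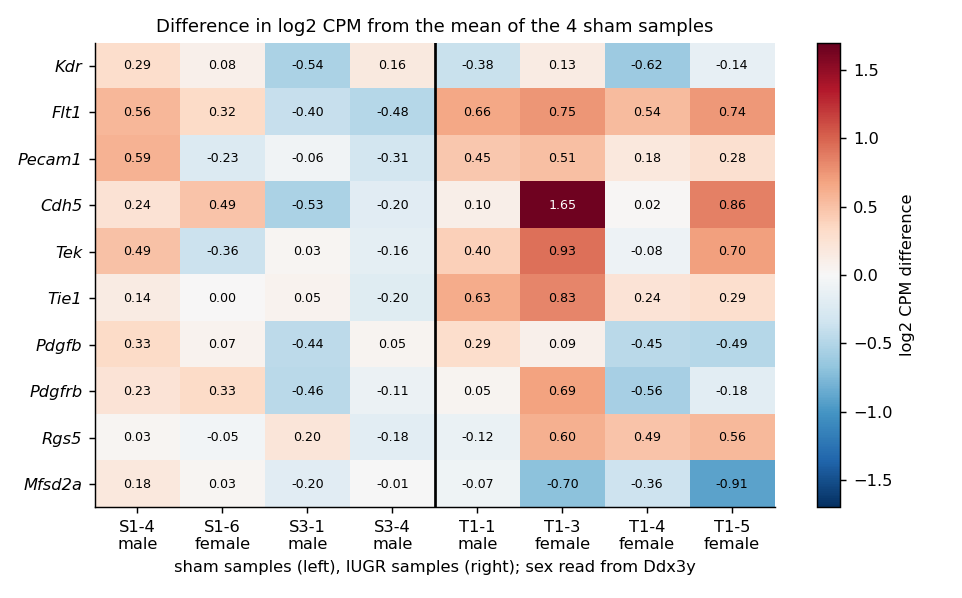
Difference in log2 CPM of each vascular gene (rows) in each hippocampus (columns) from the mean of the 4 sham samples, red for higher and blue for lower, with sex read from Ddx3y. T1-3 is above the sham mean for 9 of the 10 genes and S1-4 for all 10, and Mfsd2a is lowest in T1-5.

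Divided by exonic length, the sham levels of the 10 genes could be compared with each other. Rgs5 was the most abundant, at 32.1 ± 3.62 CPM per kilobase (SD, n = 4), the 88.4th percentile of the tested genes. It was followed by Mfsd2a (15.5 ± 1.66) and Kdr (10.2 ± 2.32), and the ranges of these 3 did not overlap. Pdgfrb (6.36), Pecam1 (5.31), Cdh5 (4.84), Tek (3.82) and Tie1 (3.53 CPM per kilobase) followed, and each overlapped its neighbour in this order, as Kdr did with Pdgfrb. Pdgfb (2.10) was below Tie1 without overlap, and Flt1 was the lowest at 1.35 ± 0.48 CPM per kilobase, the 16.4th percentile, overlapping Pdgfb. Lengths are the union of all annotated exons, which lowers genes with long alternative exons such as Flt1.

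Wider lists of vascular genes were read beside the 10. They held 111 genes, of which 105 were tested. None was called. In IUGR hippocampi 69 were higher and 36 lower (median log2 fold change 0.25), and 15 were higher and 8 lower at an unadjusted p under 0.05, where 4.46% of all tested genes were higher and 6.62% lower. For 4 genes the IUGR samples were all higher than the sham samples, a separation found in 2.08% of tested genes, and for 4 all lower, found in 5.06%.

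Among ligands and partners of the growth factor receptors, 1 of 7 was higher and 1 lower at an unadjusted p under 0.05. Vegfa, the main ligand, averaged 66.4 ± 13.99 CPM with IUGR and 69.1 ± 15.4 CPM without (SD, n = 4 each), for a log2 fold change of −0.06 (edgeR adjusted p = 0.9995). Vegfb (−0.13), Vegfc (−0.37) and Pgf (0.14), the other ligands, did not pass either threshold, nor did the lymphatic receptor Flt4 (0.50). Neuropilins are co-receptors that neurons also use, and the log2 fold changes were −0.41 for Nrp1 and 0.78 for Nrp2, each with an unadjusted p under 0.05 (edgeR adjusted p = 0.437 and 0.211). Of the angiopoietin partners, Angpt1, the Tie2 agonist, had a log2 fold change of −0.30, Angpt2, its context-dependent antagonist, 0.26, and Ptprb, the endothelial phosphatase that acts on Tie2, 0.79 (edgeR adjusted p = 0.197 for Ptprb). Of the 4 other PDGF ligands and receptors, 3 were lower, 2 of them at an unadjusted p under 0.05 (median log2 fold change −0.81). Pdgfc was at −0.69 (edgeR adjusted p = 0.300) and Pdgfd at −0.96 (adjusted p = 0.529), and Pdgfa was lower without overlap, at 9.63 ± 3.47 and 18.4 ± 2.51 CPM in IUGR and sham (SD, n = 4 each), for a log2 fold change of −0.93 (edgeR adjusted p = 0.122). It was 0.035 with the choroid plexus score as a covariate (edgeR adjusted p = 0.981), and −1.05 with the meningeal score (adjusted p = 0.0133), which met the rule for a call. Its receptor Pdgfra, found on glial precursors and meningeal fibroblasts, was at 0.33.

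In the wider endothelial list, 22 of 25 genes were higher in IUGR, beside 44.5% of all tested genes, 5 of them at an unadjusted p under 0.05, and the median log2 fold change was 0.40. Cldn5, the main claudin of the barrier, was at 0.59 (edgeR adjusted p = 0.562), Esam, an endothelial adhesion molecule, at 0.57 (adjusted p = 0.406) and Robo4, an endothelial guidance receptor whose groups did not overlap, at 0.49 (adjusted p = 0.478). Plvap, a component of fenestrae in leaky vessels, was at −0.46 and Emcn, a sialomucin of veins and capillaries, at −0.28. Pericyte and smooth muscle genes were higher in 13 of 16 cases, 3 of them at an unadjusted p under 0.05, with a median of 0.46. Among markers of other tissue, 8 of 8 neuronal and 9 of 10 meningeal markers were higher as well, with medians of 0.46 and 1.198. The log2 fold changes were 0.39 for Cspg4, 0.45 for Abcc9 and 0.25 for Kcnj8, which mark pericytes, −0.18 for the mural receptor Notch3, and 1.37 for Acta2, smooth muscle actin. Vtn, a matrix protein of brain pericytes, had the larger value of 1.45 (edgeR adjusted p = 0.324), with 102.2 CPM in T1-3 alone and at most 25.7 CPM in the other IUGR samples. With the meningeal score, highest in T1-3, as a covariate, the log2 fold change was 1.01 for Vtn (edgeR adjusted p = 0.0819) and 0.92 for Acta2 (adjusted p = 0.161).

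Barrier genes were mixed, with 8 of 14 higher. Abcb1a, the efflux pump P-glycoprotein, was higher without overlap, at 9.70 ± 1.47 and 5.19 ± 1.32 CPM in IUGR and sham (SD, n = 4 each), for a log2 fold change of 0.90 (edgeR adjusted p = 0.109). Ocln, the tight junction protein occludin, was lower without overlap, at 10.9 ± 4.67 and 31.5 ± 9.45 CPM (SD, n = 4 each), for a log2 fold change of −1.52 that missed the threshold at an edgeR adjusted p of 0.0514. Ocln met the rule for a call without T1-5 (−1.75, edgeR adjusted p = 0.0339), with limma-voom (−1.56, adjusted p = 0.0336), with DESeq2 (−1.51, adjusted p = 0.000422), without a count filter (−1.49, edgeR adjusted p = 0.0446) and with the meningeal score as a covariate (−1.67, edgeR adjusted p = 0.00677). The anion transporter Slco1a4 was also lower without overlap, at 9.11 ± 13.0 and 69.7 ± 16.1 CPM (SD, n = 4 each), for a log2 fold change of −2.93 (edgeR adjusted p = 0.217). Slco1a4 met the rule for a call without T1-5 (−4.53, edgeR adjusted p = 0.0321) and with limma-voom (−4.81, adjusted p = 0.0318). Choroid plexus markers were lower as well, and choroid plexus epithelium also expresses Ocln and Slco1a4. With the choroid plexus score as a covariate the log2 fold change was −0.27 for Ocln (edgeR adjusted p = 0.865) and 1.26 for Slco1a4. Values of this score do not overlap between the groups, so score and treatment cannot be told apart, and the cause was not tested. The glucose transporter Slc2a1 was at −0.02, and Itm2a, an early endothelial membrane protein, was at 0.85. Of 12 genes of the Wnt pathway that instructs the barrier, 3 were lower at an unadjusted p under 0.05. Wnt7b, a neural ligand, was at −0.78, Apcdd1, an endothelial Wnt inhibitor, at −0.78, and Tspan12, a coreceptor whose groups did not overlap, at −0.61 (edgeR adjusted p = 0.318, 0.198 and 0.201). The S1 samples differed from the S3 samples by −0.67 for Tspan12 and by −1.01 for Wnt7b in log2 CPM, and the log2 fold change of Tspan12 was −0.24 against the S1 samples alone and −0.88 against the S3 samples alone. Wnt7a (0.12) and its co-receptors Adgra2 (0.55) and Reck (0.19) did not pass.

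Notch and tip cell genes, 11 in all, had no member at an unadjusted p under 0.05 and a median log2 fold change of 0.00059. Dll4, the endothelial Notch ligand, was at 0.31, Apln, the tip cell peptide, at 0.32 and Esm1, another tip cell gene, at −0.36. Of the artery and vein genes, Gja4, an arterial connexin, was higher without overlap, with 7.61 ± 3.33 and 3.82 ± 0.82 CPM (SD, n = 4 each) and a log2 fold change of 1.00 (edgeR adjusted p = 0.197). Efnb2, the arterial ephrin, was at 0.49 and Ephb4, its venous receptor, at −0.17. Among 10 genes that low oxygen induces, only Adm, which encodes the vasodilator peptide adrenomedullin, passed an unadjusted p of 0.05. It averaged 2.97 ± 0.65 CPM with IUGR and 1.55 ± 0.28 CPM without (SD, n = 4 each), without overlap, and it did not pass adjustment (log2 fold change 0.94, edgeR adjusted p = 0.193).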

How the data were processed

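Total RNA of 8 hippocampi was depleted of ribosomal RNA, and stranded libraries were sequenced as single reads in the same lane. The authors deposited raw counts of reads per gene for each sample, aligned to GRCm38. The submitters' processing notes name Novoalign 2.8, and the counting program, annotation and strand setting are not given in the sources used here. Identifiers were matched to GENCODE M21 (16124 of 16397). Testing was limited to protein-coding genes whose counts averaged from 10 up to 50000, and used edgeR 4.0.16 in R 4.3.3 (TMM, quasi-likelihood, Benjamini-Hochberg adjustment over 13707 genes), and the script was tested on simulated data. Alternatives used DESeq2 1.42.0 and limma 3.58.1. Log2 CPM used a prior count of 2. Counts within groups differed beyond sampling noise in all 12 pairs of samples (chi-square per degree of freedom 27.7 to 73.8). The members, lists and rules were chosen with earlier results of these data known. Named genes were the 10 members and a fixed set of examples from the wider vascular lists. Every gene of those wider lists that was called or did not overlap was also named. Nrp2, Pdgfc and Pdgfd were added after their values were seen. Intervals are at 95%.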

Additional observations from a re-analysis of the deposited data

Results flagged for a closer look

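Of 100 groups of 4 samples examined for a single distant sample, 6 held one, and chance flags about 1 in 20 groups. None was a group of the 10 vascular genes. T1-3 was the distant sample in 4 of the IUGR groups. It had 7.01 CPM of Plvap, 102.2 CPM of Vtn, 8.54 CPM of Esm1 and 12.54 CPM of Gja4, where the nearest other IUGR samples had 3.29, 25.7, 1.69 and 6.74 CPM. T1-3 was also the sample with the highest meningeal sum. In the sham group, S1-4 stood apart for Esm1 at 11.5 CPM (nearest sample 2.08 CPM), and S3-1 for Angpt1 at 50.2 CPM (nearest sample 32.9 CPM).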

How the results depend on the processing

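Of the 10 vascular genes, 7 kept their direction in all 21 alternatives. None was called in any of the 8 fits that left out 1 sample, and none in the alternatives but 1: with the choroid plexus score, whose values do not overlap between the groups, as a covariate, Cdh5 was called (1 gene, log2 fold change 2.05, adjusted p = 0.0436), the members' median was 0.72 and Kdr (0.33), Pdgfa (0.035) and Slco1a4 (1.26) changed sign. Pdgfrb changed sign against the S1 samples alone (−0.21), with Xist (−0.078) or the meningeal score (−0.069) as a covariate, and Pdgfb against the S3 samples alone (0.10). With 1 sample left out, Pdgfrb ranged from −0.21 to 0.20, Pdgfb from −0.25 to 0.011, the median from 0.28 to 0.51, and the members with an unadjusted p under 0.05 from 1 to 5. That number was 1 against the S1 samples alone and 1 with the Xist covariate. The cause of these shifts was not tested. Over all genes, the number called was 425 with DESeq2, 328 with limma-voom, 73 at a mean count of at least 50, 0 against the S1 samples alone (1053 at an unadjusted p under 0.05), 2 against the S3 samples alone, 0 with the Xist covariate (966 at an unadjusted p under 0.05), 450 with the meningeal covariate, and 41 to 298 with 1 sample left out. In the wider lists it was 2 with DESeq2, 2 with limma-voom, 1 without a count filter, 1 without T1-1 and T1-4, 8 with the choroid plexus and 3 with the meningeal covariate, and 0 to 2 with 1 sample left out. Ocln was the wider gene nearest to a call, at −1.51 with DESeq2 (adjusted p = 0.000422) but at −0.27 with the choroid plexus covariate (edgeR adjusted p = 0.865). No paired analysis was possible because nothing in the labels ties the numbers in the sample names to a shared litter, day or batch. The smallest mean count among the 10 genes was 108.8 (Pdgfb).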

Other observations

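The tested genes whose levels varied most like the 10 vascular genes were read from the 11897 whose counts averaged 50 or more. The measure was the correlation with the mean log2 CPM of the 10 genes over 8 samples, after the group means were removed. The 10 highest were Rflnb (0.99), Lcp1 (0.98), Stim2 (0.98), Glul (0.98), Jdp2 (0.98), F11r (0.97), Inpp5d (0.97), Rhobtb1 (0.97), Arhgef5 (0.96) and Marveld1 (0.96). Without that removal the correlations of these 10 genes ran from −0.01 (Stim2) to 0.93 (Rhobtb1). None of these genes is in the wider vascular lists, Lcp1 and Inpp5d are known from leukocytes and microglia, and F11r encodes a tight junction protein. The correlations describe these 8 libraries, which share depth and tissue makeup. Blood cell markers, 9 of 9 of which were higher in IUGR hippocampi with none at an unadjusted p under 0.05, summed to 1808 (T1-1), 2188 (T1-3), 677 (T1-4) and 1905 CPM (T1-5), beside 1084 to 1640 CPM in the sham group. T1-4 had the least blood RNA of the 8 samples, and the lowest level of Kdr, Pdgfrb and, among IUGR samples, Tek, Cdh5 and Tie1. In the same sample Rgs5 (203.6 CPM) exceeded every sham sample, and Mfsd2a (27.1 CPM) exceeded T1-3 and T1-5. Among sham samples, S1-4 had the lowest blood sum (1084 CPM) and all 10 genes above the sham mean. S3-1 had the highest (1640 CPM) and the lowest median of the 10 genes (−0.30). Whether vascular and blood RNA varied together was not tested.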
